A study of Mus musculus with 8 samples.

Results

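The nuclear genes that encode the subunits of oxidative phosphorylation were examined in single nuclei RNA sequencing (snRNA-seq) libraries of the ventricular-subventricular zone (V-SVZ), the stem cell niche that lines the lateral ventricles. Genes were taken by symbol, namely those beginning with Nduf, Sdha, Sdhb, Sdhc, Sdhd, Uqcr, Cox4, Cox5, Cox6, Cox7, Cox8 or Atp5, with symbols holding -ps left out. This gave 97 of the 32285 genes in the matrices. They comprised 36 genes of complex I, 4 of complex II, 8 of complex III, 20 of complex IV, 17 of complex V and 12 assembly factors.

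Nuclei came from 8 mice at postnatal day 90, each with its own library, 4 of them *Tsc2* wt/wt and 4 *Tsc2* mut/mut. Animals of both genotypes carried a tdTomato reporter that Cre recombinase switches on, and 100000 tdTomato-positive nuclei were sorted per mouse, so the controls had also met Cre. The *Tsc2* allele of the mutants is conditional and is lost where Cre acts. The study delivered Cre to neonatal V-SVZ neural stem cells (NSCs) in more than 1 way, and which was used for these mice is not given in the sources used here. Other cell types of the niche were also recovered, in which loss of *Tsc2* cannot be taken for granted.

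Oxidative phosphorylation is carried out in the inner mitochondrial membrane. Complex I (NADH dehydrogenase) and complex II (succinate dehydrogenase) pass electrons to ubiquinone, complex III passes them to cytochrome c, and complex IV (cytochrome c oxidase) passes them to oxygen. The proton gradient made on the way drives complex V, the ATP synthase. A few core subunits are encoded by mitochondrial DNA. The others, complex II as a whole included, are transcribed in the nucleus and exported as mRNA for translation in the cytoplasm. Nuclear respiratory factor 1 (NRF1) and the ETS family factor GABP bind promoters of many of these genes, and several complex IV subunits exist as isoforms with restricted tissue patterns.

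Promoter windows were available from RefSeq (GRCm38.p6) for 80 of the 97 genes, each running from 250 bases before to 50 bases after the transcription start. They are shown because a common promoter element is what these genes are known for outside the present measurements. The 10-base NRF1 palindrome, whose letters are the capitals in the windows printed here, was searched on both strands and occurred in 7 of the 80 windows (8.75%) and in 290 of the 27025 windows of all genes (1.07%). Its looser form, with any base in place of the T and so including the palindrome, occurred in 21 (26.2%) against 5.19% of all windows. The YY1 motif AAGATGGCG was found in 8 windows (10%) against 1.64%, and the ETS motif CCGGAAGT in 5 (6.25%) against 4.31%. A match of letters is a description and not a binding site. The 7 palindromes are printed with 10 bases on either side, on the strand of the gene, with the motif in capitals. *Atp5g2* and *Atp5k* encode ATP synthase subunits, *Cox6a1* a complex IV subunit, *Ndufa11* a complex I subunit, *Uqcrc1* a core protein of complex III, and *Ndufaf4* and *Ndufaf5* complex I assembly factors.
*Atp5g2*, chr15:102671070-102671099, minus strand: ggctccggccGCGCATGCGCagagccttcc
*Atp5k*, chr5:108434430-108434459, minus strand: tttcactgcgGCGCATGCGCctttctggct
*Cox6a1*, chr5:115349101-115349130, minus strand: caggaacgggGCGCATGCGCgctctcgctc
*Ndufa11*, chr17:56717692-56717721, plus strand: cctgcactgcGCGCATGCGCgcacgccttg
*Ndufaf4*, chr4:24897960-24897989, plus strand: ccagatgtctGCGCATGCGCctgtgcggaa
*Ndufaf5*, chr2:140170652-140170681, plus strand: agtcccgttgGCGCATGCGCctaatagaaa
*Uqcrc1*, chr9:108936668-108936697, plus strand: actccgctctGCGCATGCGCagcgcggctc

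*Cox8a* is a complex IV gene with a genotype call, given below, that was lost under several other settings. It had no NRF1 palindrome in its window. It held the ETS motif on the other strand in 2 places, first across the start and then inside the gene. They are printed in that order.
*Cox8a*, chr19:7217605-7217632, minus strand: tttccgaaatACTTCCGGctcgggcgtc
*Cox8a*, chr19:7217568-7217595, minus strand: cagcgccggaACTTCCGGctggttcggc

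Each library held 60000 barcodes, a barcode being the tag of 1 droplet, and from 11182335 to 36773832 unique molecular identifiers (UMIs), each of which counts 1 captured mRNA. Barcodes with at least 300 genes were kept, 37881 in all and 1923 to 10153 per mouse. They were split by the share of UMIs from the 13 mitochondrially encoded mRNAs. The 3470 barcodes with under 20% were called nucleus-like (191 to 942 per mouse), and the 32176 with at least 35% mitochondria-rich (1530 to 8543 per mouse). The 2235 between were left out, and 1036 barcodes lay near the lower limit and 4566 near the upper. Barcodes with 100 to 199 genes, 188560 in all, served as low-count barcodes, a reference for RNA that was free in the suspension. Median UMIs per barcode were 1927 to 4432 in nucleus-like, 865 to 1322 in mitochondria-rich and 275 to 409 in low-count barcodes. Kept barcodes had 37714 distinct sequences, of which 166 occurred in more than 1 library. Levels are given as UMIs per 1000000 UMIs of nuclear-encoded genes (CPM), so the mitochondrially encoded mRNAs do not enter them. Tags lie near the 3′ end and count 1 per mRNA, so levels were not divided by gene length. *Tsc2* itself was at 20.1, 21.2, 19.3 and 22.3 CPM in *Tsc2* wt/wt 1 to 4 and at 19.6, 21.5, 18.3 and 15.2 CPM in *Tsc2* mut/mut 1 to 4 over all kept barcodes. Its log2 difference was −0.08 (standard error 0.15, adjusted p = 0.999, quasi-likelihood test of edgeR with Benjamini-Hochberg adjustment over all genes). A tag near the 3′ end can lie outside the deleted part and then checks nothing.

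One library stood apart. In *Tsc2* mut/mut 4, 177 of 199 nucleus-like barcodes (88.9%) were choroid plexus-like, a cluster led by *Ttr*, the thyroxine carrier that choroid plexus secretes. These barcodes held 94.5% of its nucleus-like UMIs. In the other 7 mice the share was 0.524% to 16.1% of barcodes and 3.41% to 41.6% of UMIs. The cluster went against its label in another respect. *Malat1*, an RNA that stays in the nucleus, was at 325 ± 447 CPM in choroid plexus-like barcodes (SD, n = 7) and at 43384 ± 4531 CPM in nucleus-like NSC/astrocyte-like barcodes (n = 7), against 714 ± 348 CPM in mitochondria-rich barcodes (n = 8). Barcodes of the choroid plexus-like cluster therefore met the mitochondrial limit for nuclei and held little of this nuclear RNA. The main results on nucleus-like barcodes are given with and without them. Fits without them keep all 8 mice, with 22 barcodes of *Tsc2* mut/mut 4.

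The first question was how much oxidative phosphorylation mRNA each population held. Summed over the 97 genes, nucleus-like barcodes had 38619, 14106, 9052 and 21449 CPM in *Tsc2* wt/wt 1 to 4 and 16129, 27999, 26657 and 86133 CPM in *Tsc2* mut/mut 1 to 4. Mitochondria-rich barcodes had 67861, 69301, 67447 and 66148 CPM in *Tsc2* wt/wt and 69704, 69884, 69114 and 75456 CPM in *Tsc2* mut/mut. The mitochondria-rich level was nearly the same in every mouse, and the nucleus-like level spanned almost an order of magnitude, with *Tsc2* mut/mut 4 alone above its own mitochondria-rich level. Once choroid plexus-like barcodes were left out, the nucleus-like sums were 5026, 7494, 6812 and 4958 CPM in *Tsc2* wt/wt and 7478, 6766 and 9264 CPM in *Tsc2* mut/mut 1 to 3, with too few barcodes left in *Tsc2* mut/mut 4. The 7 mice then lay close together and far below the mitochondria-rich sums. Low-count barcodes had 69556 ± 3799 CPM (SD, n = 8), within 1 SD of the mitochondria-rich mean of 69364 ± 2773 CPM (n = 8). In sums over barcodes, fewer cells of a type and less RNA per cell cannot be told apart.

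**Figure D1:**
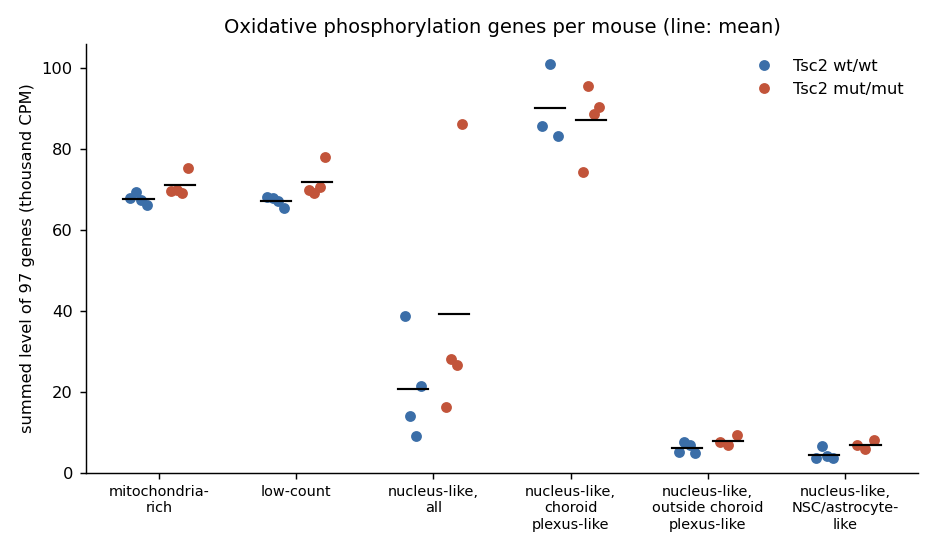
Summed level of the 97 oxidative phosphorylation genes per mouse (CPM of nuclear-encoded UMIs), with 1 point per mouse by genotype. The groups are mitochondria-rich, low-count and all nucleus-like barcodes, and nucleus-like barcodes that are choroid plexus-like, outside that cluster or NSC/astrocyte-like. Mitochondria-rich barcodes lie between 66148 and 75456 CPM in all mice, low-count barcodes at a like height and choroid plexus-like barcodes above them on average. Nucleus-like barcodes outside that cluster and NSC/astrocyte-like barcodes lie far below.

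Genes were then compared between nucleus-like and mitochondria-rich barcodes with the mouse as a block. Of the 97 genes, 94 passed the filter on low counts, which left out *Cox7b2*, *Cox8c* and *Ndufa4l2*. Counts were lower in nucleus-like barcodes for 82 of the 94, higher for 4 and not called for 8 (adjusted p under 0.05 in edgeR, quasi-likelihood test and Benjamini-Hochberg adjustment over all genes). Of the 10878 genes tested, 39.4% were called lower and 39.6% higher. The median log2 difference of the 94 genes was −1.79, against −0.02 for all genes. When choroid plexus-like barcodes were left out, 89 of 93 genes tested were lower and 1 was higher, with a median of −3.93, while 44.5% of all genes were called lower and 43.4% higher. TMM factors bear on these values, since without them the median of all genes moved to 0.58 and that of the set to −1.19, with 68 genes lower and 8 higher. The shares of all genes called at that setting are not given here, so these counts cannot be set against them.

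Every complex shared in the difference, and assembly factors did so least. In complex I, 34 of 36 genes were lower (median log2 difference −1.81). All 4 genes of complex II were lower (−1.27), and so were all 8 of complex III (−1.89). In complex IV, 14 of 17 genes tested were lower and 2 were higher (−2.57). In complex V, 16 of 17 were lower (−1.89). Among the 12 assembly factors, which help to build the complexes and are not part of them, 6 were lower and 2 higher (−0.56). Without choroid plexus-like barcodes each subunit gene tested was lower, 36, 4, 8, 16 and 17 for complexes I to V, and so were 8 of the 12 assembly factors.

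**Figure D2:**
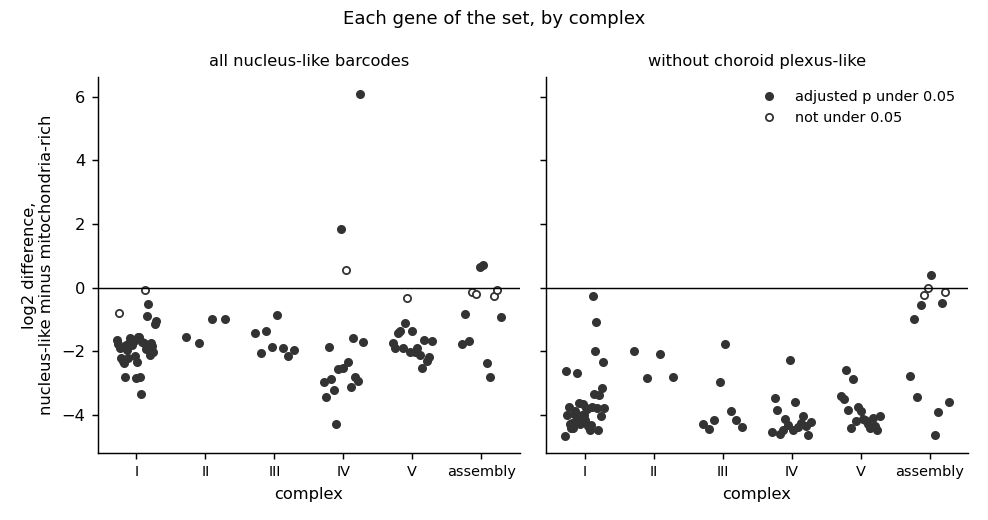
Log2 difference between nucleus-like and mitochondria-rich barcodes for each gene tested, by complex, with all nucleus-like barcodes and without choroid plexus-like barcodes (negative values are lower in nucleus-like barcodes). Subunit genes move from medians between −1.27 and −2.57 to medians between −2.44 and −4.29 when choroid plexus-like barcodes are left out, and assembly factors stay nearest to 0.

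The most abundant complex IV gene of mitochondria-rich barcodes was *Cox8a* (ENSMUSG00000035885, chr19:7215153-7217616 on GRCm38), which encodes the broadly used isoform of subunit 8. It was at 8097, 7395, 7570.2 and 7655 CPM in mitochondria-rich barcodes of *Tsc2* wt/wt and at 9399.6, 8559, 8667 and 9579 CPM in those of *Tsc2* mut/mut. In nucleus-like barcodes it was at 2289.6, 988, 705 and 1314 CPM and 1241, 1795, 2158 and 5723 CPM. The level in nucleus-like barcodes was the lower one in all 8 mice, and its log2 difference was −2.95 (standard error 0.39), adjusted p = 1.5e-05 by edgeR's quasi-likelihood test. Outside the choroid plexus-like cluster the 7 mice had 281 to 945 CPM.

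With all nucleus-like barcodes, 4 of the 5 genes with the lowest log2 differences were of complex IV. *Cox6a2*, the isoform of subunit 6a of striated muscle (chr7:128205435-128206387, where *Itgad* lies on the other strand), was at 31.2 ± 5.03 CPM in mitochondria-rich barcodes (SD, n = 8). In nucleus-like barcodes it was at 0, 3.03, 1.55 and 0.785 CPM in *Tsc2* wt/wt and 4.81, 2.36, 2.95 and 1.13 CPM in *Tsc2* mut/mut. Its log2 difference was −4.30 (standard error 0.32). *Cox4i2*, the isoform of subunit 4 best known from lung, followed with −3.44 (standard error 0.30). Both are low genes, so few UMIs stand behind the nucleus-like values. *Ndufb9*, a complex I subunit, showed −3.33 (standard error 0.35), from 1735 ± 58.4 CPM in mitochondria-rich barcodes (n = 8), and shares bases with *Gm49356* on the same strand. *Cox6a1*, the common isoform of subunit 6a, showed −3.22 (standard error 0.36), and *Cox7a2l*, a subunit 7a relative that helps to form supercomplexes, −3.14 (standard error 0.36). Adjusted p of these 5 genes was at most 4.17e-06 (edgeR, quasi-likelihood test, Benjamini-Hochberg adjustment). The order was another one without choroid plexus-like barcodes, where *Ndufa1* of complex I (−4.66), *Ndufaf8* (−4.64), *Cox8a* (−4.64), *Cox5b*, which encodes subunit 5b (−4.60), and *Cox4i1* (−4.55) were lowest. There *Cox6a2* was at −4.12, *Cox4i2* at −3.47, *Ndufb9* at −4.49, *Cox6a1* at −4.48 and *Cox7a2l* at −4.26.

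The genes of highest level in mitochondria-rich barcodes in the other complexes moved the same way. *Sdha*, the flavoprotein of complex II (chr13:74322254-74350280, with *Gm16125* on the other strand), had a log2 difference of −1.56 (standard error 0.24). For *Uqcr11*, a small subunit of complex III, the value was −2.06 (standard error 0.43), and for *Atp5md*, a subunit of ATP synthase dimers, −2.30 (standard error 0.40). The complex I assembly factor *Ndufaf8* showed −2.39 (standard error 0.40). Adjusted p was at most 0.00065 for these 4 (edgeR's quasi-likelihood test). Without choroid plexus-like barcodes the values were −1.98 for *Sdha*, −4.46 for *Uqcr11* and −4.36 for *Atp5md*.

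Only 4 genes were higher in nucleus-like barcodes. *Cox8b* (chr7:140898945-140900446), the isoform of subunit 8 found in heart, muscle and brown fat, was at 491, 91.5, 28 and 347 CPM in nucleus-like barcodes of *Tsc2* wt/wt and 86.7, 358, 194 and 748 CPM in those of *Tsc2* mut/mut. In mitochondria-rich barcodes it lay between 0.999 and 3.69 CPM. Its log2 difference was 6.08 (standard error 0.52), adjusted p = 3.97e-07 by edgeR's quasi-likelihood test, with no overlap between the populations. *Cox6b2*, known as the testis isoform of subunit 6b, was higher by 1.83 (standard error 0.51), adjusted p = 0.00506 in the same edgeR fit. The remaining pair were the complex I assembly factors *Ndufaf7*, a methyltransferase (0.72 (standard error 0.19), adjusted p = 0.00392, edgeR), and *Ndufaf6* (0.66 (standard error 0.20), adjusted p = 0.00787, edgeR).

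These 4 calls did not rest on the same barcodes. Of the 2922 *Cox8b* UMIs in nucleus-like barcodes, 2900 were in the choroid plexus-like cluster, and too few were left elsewhere to test the gene. *Cox6b2* reversed to −2.29 without that cluster, and *Ndufaf6* went to −0.02. *Ndufaf7* (chr17:78937136-78948052) was the 1 gene called higher in both fits. It had 37.9 ± 7.27 CPM outside the choroid plexus-like cluster (n = 7) and 16.1 ± 3.67 CPM in mitochondria-rich barcodes (n = 8). Its log2 difference there was 0.38 (standard error 0.16, adjusted p = 0.0232 by edgeR's quasi-likelihood test). The CPM carry no TMM factors and the fit does, so the 2 differ in size. Without choroid plexus-like barcodes the fit was not run without these factors, which bear on values near 0 such as that of *Ndufaf6*.

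The 8 genes that passed neither way were *Ndufa11* and *Ndufs1* of complex I, *Cox7a1* of complex IV, *Atp5g1* of complex V and the assembly factors *Ndufaf4*, *Ndufaf5*, *Sdhaf2* and *Sdhaf3*. For *Atp5g1*, which encodes the c subunit of the ATP synthase rotor, the log2 difference was −0.33 (standard error 0.48) over all nucleus-like barcodes (adjusted p = 0.54, edgeR) and −4.21 without choroid plexus-like barcodes. *Cox7a1*, the heart and muscle isoform of subunit 7a, showed 0.55 (standard error 0.37) and −3.60 in the same fits. *Ndufs1*, the largest subunit of complex I, stayed near 0 in both, with −0.08 and −0.25.

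Gene length accompanied part of this pattern. Counts in nuclei can include unspliced RNA, which grows with the length of introns, and whether introns were counted is not given in the sources used here. Among genes that span less than 5 kb, the median log2 difference was −1.68 for all genes and −1.86 for the 30 genes of the set. From 5 to 20 kb it was −0.83 for all genes and −1.89 for 49 of the set. Between 20 and 100 kb the medians were 0.39 and −0.97, the latter over 13 genes, and above 100 kb 1.66 and −0.68, the latter over 2 genes (*Ndufs4* and *Ndufaf2*). The set lay below all genes of its length class in each class, least so among short genes. Without choroid plexus-like barcodes the medians of all genes and of the set were −2.98 and −4.28 under 5 kb, −1.32 and −3.88 from 5 to 20 kb, 0.44 and −1.98 from 20 to 100 kb and 2.02 and −1.04 above 100 kb. Choroid plexus-like barcodes differed from this. Against mitochondria-rich barcodes of the same name, the set lay above all genes in each class there. The medians were 0.80 against 0.28 in the shortest class and 0.19, over 2 genes, against −1.63 in the longest. Those mitochondria-rich barcodes held far less *Ttr*, as given below, so a shared name does not show the same cell type.

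Mitochondria-rich and low-count barcodes were close in this gene set. Of 94 genes tested, 4 were higher in mitochondria-rich barcodes and 11 were lower, and the median log2 difference was −0.04. Of the 10795 genes tested, 7.48% were called higher and 8.62% lower (edgeR's quasi-likelihood test, adjusted p under 0.05). The higher genes were *Sdha* (0.14 (standard error 0.05)), *Uqcrc1* (0.12 (standard error 0.04)) and those of the ATP synthase subunits alpha and beta, *Atp5a1* (0.11 (standard error 0.04)) and *Atp5b* (0.10 (standard error 0.03)). Among the lower genes, *Cox6b2* showed −0.44 (standard error 0.12), and the other 10, *Ndufa11* first among them, lay between −0.15 and −0.09. The count moved with the setting, from 15 to 4 without the filter on low counts and to 1 with DESeq2. Leaving out 1 mouse gave 4 to 13. The shares of all genes called at these settings are not given here.

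Outside the choroid plexus-like cluster of nucleus-like barcodes, the sum rose with the mitochondrial share of a barcode. Without choroid plexus-like barcodes it was 3598 ± 902 CPM at a share under 5% (SD, n = 7), 6644 ± 1001 CPM from 5% to 10% (n = 7) and 13898 ± 4587 CPM from 10% to 20% (n = 7). That cluster was named among nucleus-like barcodes only, so the bins from 20% on hold all kept barcodes and all 8 mice. From 20% to 30% the sum was 39217 ± 5669 CPM (n = 8), from 30% to 40% 61807 ± 2861 CPM and from 40% to 50% 68529.7 ± 3216 CPM. Above 50% it was 71641 ± 3263 CPM. In this series the mean was higher in each bin than in the one before, and the widest steps lay between 10% and 40%. The step at 20% joins bins without that cluster to bins of all kept barcodes, so its width is not one of the share alone. With choroid plexus-like barcodes included, the 3 bins under 20% had means of 32227, 30454 and 27419 CPM with SDs of 31885, 23849 and 15675 CPM. These means did not rise with the share.

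**Figure D3:**
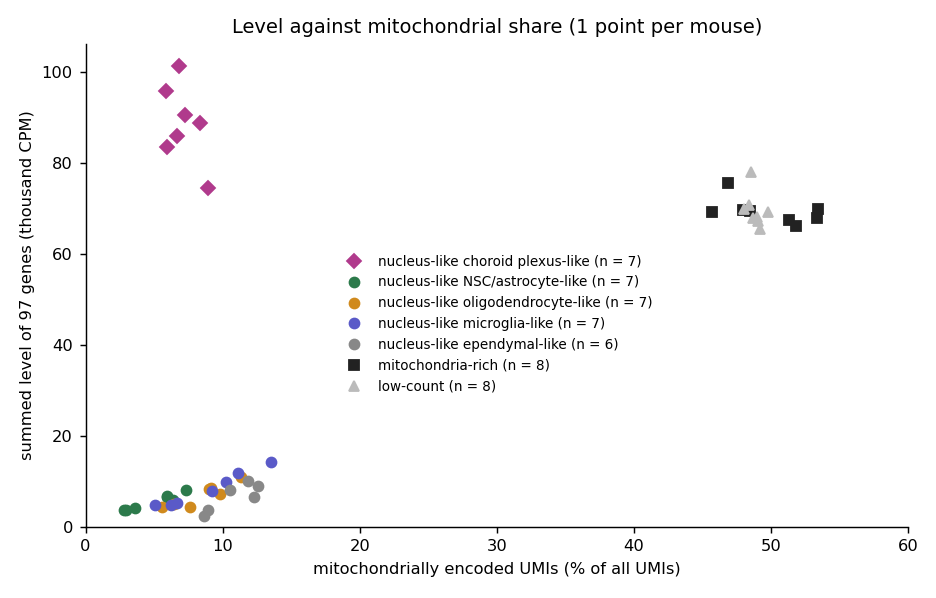
Summed level of the 97 genes (CPM of nuclear-encoded UMIs) against the share of mitochondrially encoded UMIs, with 1 point per mouse and group. The groups are mitochondria-rich barcodes, low-count barcodes and the choroid plexus-like, NSC/astrocyte-like, oligodendrocyte-like, microglia-like and ependymal-like clusters of nucleus-like barcodes. Choroid plexus-like barcodes combine a low share with a high level, and the other nucleus-like clusters drawn lie low in both.

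As a measure that does not depend on the other nuclear-encoded mRNAs, UMIs of the 97 genes were set against the mitochondrially encoded UMIs of the same barcodes. The ratio was 5.94, 7.37, 6.40 and 6.14 per 100 mitochondrially encoded UMIs in mitochondria-rich barcodes of *Tsc2* wt/wt and 7.57, 6.08, 8.20 and 8.56 in those of *Tsc2* mut/mut. Low-count barcodes had 7.29 ± 0.490 (SD, n = 8). Nucleus-like barcodes outside the choroid plexus-like cluster had 8.64, 9.11, 11.5 and 10.00 in *Tsc2* wt/wt and 9.30, 7.40 and 9.30 in *Tsc2* mut/mut 1 to 3. In choroid plexus-like barcodes it was 120.3, 139 and 132 in *Tsc2* wt/wt 1, 2 and 4 and 75.8, 153, 97.7 and 116 in *Tsc2* mut/mut 1 to 4, at a mean of 119. Among the other clusters of nucleus-like barcodes the mean ran from 5.26 in ependymal-like to 10.7 in NSC/astrocyte-like barcodes. The populations were split by the mitochondrial share, which shares its UMIs with the ratio, so the ratio is no independent measure between nucleus-like and mitochondria-rich barcodes. Within nucleus-like barcodes the mitochondrial share was alike, at 7.11 ± 1.16% of UMIs in choroid plexus-like barcodes and 6.90 ± 1.63% outside them (n = 7 each). There the choroid plexus-like barcodes of each mouse stood far above the others in the ratio. At a like share the ratio follows from the CPM, so it repeats the difference in CPM and adds no separate support to it.

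Levels were next described by cell type. Nucleus-like barcodes were clustered without the 97 genes, the mitochondrial genes and the ribosomal protein genes, and clusters were named from marker lists. The clusters come from the same barcodes, so the levels are a description with no test. Choroid plexus-like barcodes had 85814, 101135 and 83377 CPM in *Tsc2* wt/wt 1, 2 and 4 and 74417, 95687, 88694 and 90509.7 CPM in *Tsc2* mut/mut 1 to 4. This exceeded each other cluster in every mouse with at least 10 barcodes of both. Endothelial-like barcodes followed with 10639 ± 1856 CPM (n = 4), then microglia-like with 8371 ± 3709 CPM (n = 7), oligodendrocyte-like with 6892 ± 2534 CPM (n = 7), inhibitory neuron/neuroblast-like with 6759 ± 3469 CPM (n = 5) and ependymal-like with 6621 ± 3049.9 CPM (n = 6). Mural/fibroblast-like, oligodendrocyte progenitor cell (OPC)-like and NSC/astrocyte-like barcodes had the lowest means, at 5623 ± 758 CPM (n = 4), 5593 ± 2150 CPM (n = 3) and 5521 ± 1785 CPM (n = 7). These means cover different mice, since only mice with at least 10 barcodes of a cluster enter. Those of endothelial-like and mural/fibroblast-like barcodes come from *Tsc2* wt/wt 2 and *Tsc2* mut/mut 1 to 3 only. The order of means is therefore not an order within mice.

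The order below the choroid plexus was partly within the spread. Microglia-like and oligodendrocyte-like barcodes exceeded NSC/astrocyte-like barcodes in 7 of 7 mice each, and microglia-like exceeded oligodendrocyte-like barcodes in 6 of 7. Endothelial-like exceeded microglia-like barcodes in 2 of 4 mice, and inhibitory neuron/neuroblast-like exceeded ependymal-like barcodes in 2 of 4. Ependymal-like barcodes, whose cells move cerebrospinal fluid with motile cilia, exceeded NSC/astrocyte-like barcodes in 5 of 6. Mural/fibroblast-like and OPC-like barcodes had means near that of NSC/astrocyte-like barcodes but came from fewer mice, and exceeded them in 0 of 4 and 0 of 3. The mitochondrial share moved with these levels in part. It was 4.99 ± 1.82% of UMIs in NSC/astrocyte-like (n = 7), 8.43 ± 2.00% in oligodendrocyte-like (n = 7) and 8.89 ± 3.03% in microglia-like barcodes (n = 7). Ependymal-like barcodes, at 10.8 ± 1.69% (n = 6), had a higher share and a lower sum than microglia-like and oligodendrocyte-like barcodes, and choroid plexus-like barcodes had by far the highest sum at a share between those of NSC/astrocyte-like and oligodendrocyte-like barcodes. The part of the share in the order was not tested.

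Single genes repeated the pattern. Of the 94 genes with at least 20 UMIs in nucleus-like clusters, 86 were highest on average in the choroid plexus-like cluster. How many of all genes were highest there was not counted, so 86 cannot be set against such a share. That cluster also held little of the nuclear RNA *Malat1*, as given above, and the part of this in the ranking was not tested. Ratios of highest to lowest cell type were ranked only among genes with at least 20 UMIs in every cell type. Genes below this limit, such as *Atp5g1* described below, can have wider ones. The widest ranked ratio was that of *Atp5e*, the epsilon subunit of ATP synthase. It was at 2613 ± 379.8 CPM in choroid plexus-like (n = 7) against 77.9 ± 37.7 CPM in NSC/astrocyte-like barcodes (n = 7). *Ndufa4*, now counted as a complex IV subunit, was at 2889 ± 179 against 88.3 ± 37.5 CPM (n = 7 each), and *Atp5mpl*, a small ATP synthase subunit, at 2022 ± 206 against 81.7 ± 37.9 CPM (n = 7 each). For *Cox7a2*, the common isoform of subunit 7a, the levels were 1827 ± 320.3 and 97.5 ± 46.6 CPM (n = 7 each). *Atp5md* was at 2194 ± 293 CPM in choroid plexus-like barcodes (n = 7) and lowest, at 106 ± 80.8 CPM, in OPC-like barcodes (n = 3).

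The 8 exceptions, named here after their values were seen, were mostly genes of long span or low level. *Ndufs1* was highest in NSC/astrocyte-like barcodes, at 109 ± 20.5 CPM (n = 7) against 83.4 ± 9.66 CPM in choroid plexus-like barcodes (n = 7), and so were *Ndufaf5* and *Cox7b2*. *Ndufaf2*, *Ndufaf7* and *Cox6a2* were highest in ependymal-like barcodes, *Sdhaf2* in inhibitory neuron/neuroblast-like and *Sdhaf3* in OPC-like barcodes. *Cox7b2* (chr5:71442824-71548205), a relative of subunit 7b, had 93 of its 105 nucleus-like UMIs in NSC/astrocyte-like barcodes. Its levels there were 78.8, 21.6, 6.65 and 24.6 CPM in *Tsc2* wt/wt and 25.4, 18 and 8.57 CPM in *Tsc2* mut/mut 1 to 3, and it had 0 UMIs in choroid plexus-like barcodes.

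Isoforms of 1 subunit differed in where they were found. *Cox8b* was at 1180.5, 1297 and 1646 CPM in choroid plexus-like barcodes of *Tsc2* wt/wt 1, 2 and 4 and 663, 1494, 884 and 792 CPM in those of *Tsc2* mut/mut 1 to 4, beside 5577 ± 717 CPM of *Cox8a* (n = 7). In low-count barcodes, which served as the reference for free RNA, *Cox8b* lay between 1.55 and 4.36 CPM. *Cox8c*, the third member of the family, had 0 UMIs in kept barcodes and 1 in low-count barcodes. *Cox6b2* was at 311 ± 48.5 CPM in choroid plexus-like (n = 7), 4.02 ± 3.30 CPM in NSC/astrocyte-like (n = 7) and 12.3 ± 4.06 CPM in mitochondria-rich barcodes (n = 8), while its partner *Cox6b1* had 1393 ± 155, 92 ± 40.6 and 1501 ± 76.3 CPM. *Cox7a1* was at 159 ± 38.5, 2.22 ± 2.81 and 16 ± 2.59 CPM in the same 3 populations, and *Cox7a2l* at 282 ± 75.5, 37.9 ± 15.6 and 562 ± 41.7 CPM. The striated muscle isoforms were thus not high as a group in the choroid plexus-like cluster, where *Cox8b* and *Cox7a1* were and *Cox6a2* was not, at 1.23 ± 2.78 CPM against 978 ± 68.5 CPM of *Cox6a1* (n = 7 each).

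The 3 genes for the c subunit of ATP synthase, which give the same mature protein, also differed. *Atp5g1* (chr11:96068852-96075670) was at 2975 ± 428 CPM in choroid plexus-like barcodes (n = 7) and 494 ± 68.3 CPM in mitochondria-rich barcodes (n = 8). For *Atp5g2* the levels were 736 ± 111 and 552 ± 40.7 CPM, and for *Atp5g3* 893 ± 131 and 351 ± 17.3 CPM. *Atp5g1* was thus the leading of the 3 in the first population, and *Atp5g2*, which has the NRF1 palindrome printed above, in the second by a smaller margin. In NSC/astrocyte-like barcodes all 3 were low, at 28.5 ± 15.1, 52.6 ± 19.97 and 32.3 ± 13.9 CPM (n = 7 each). *Cox4i1*, the common subunit 4, was at 3250.1 ± 223 CPM in choroid plexus-like and 5203 ± 335 CPM in mitochondria-rich barcodes, and *Cox4i2* at 1.18 ± 1.67 and 12.5 ± 2.84 CPM. *Cox7b*, the common subunit 7b, was at 1880.2 ± 204 and 879.5 ± 86.2 CPM. *Ndufa4l2*, a relative of *Ndufa4* induced by low oxygen, had 9 UMIs in nucleus-like barcodes, all of them endothelial-like.

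**Figure D4:**
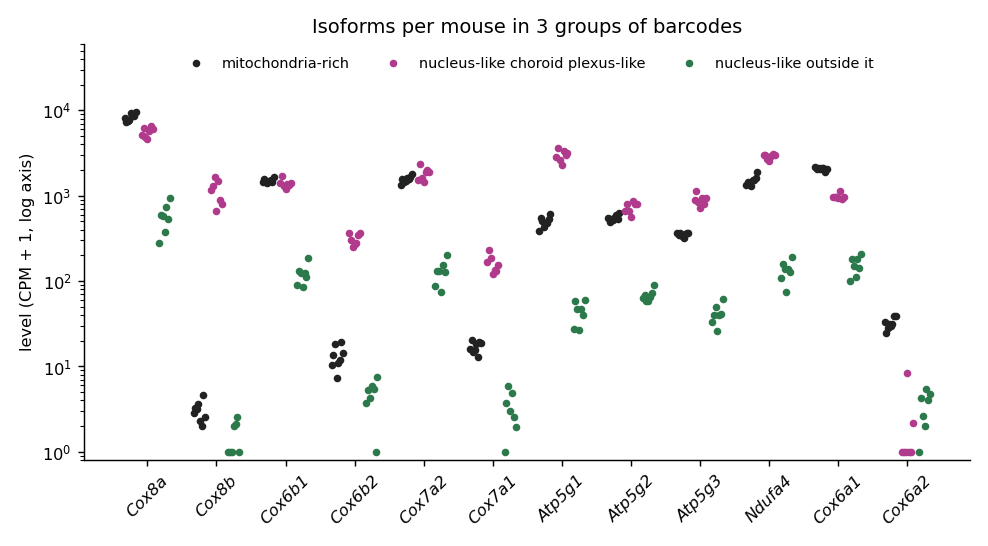
Level of genes of isoform families (CPM of nuclear-encoded UMIs, log axis) per mouse in mitochondria-rich barcodes, choroid plexus-like barcodes and nucleus-like barcodes outside that cluster. *Cox8b*, *Cox6b2*, *Cox7a1* and *Atp5g1* are higher in choroid plexus-like than in mitochondria-rich barcodes, while *Cox8a* and *Cox6a1* have lower means there.

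Complexes also contributed unequally. In mitochondria-rich barcodes, complex IV made up 30868 ± 1493 CPM of the sum, complex I 16242 ± 623 CPM and complex V 14908 ± 554 CPM (n = 8). In choroid plexus-like barcodes the sums were 27517 ± 2459 CPM for complex IV, 25513 ± 2697 CPM for complex V and 23068 ± 2204 CPM for complex I (n = 7). Complex IV was therefore the 1 complex whose mean was lower in choroid plexus-like than in mitochondria-rich barcodes. Complex III was at 10776 ± 1219.7 against 6223 ± 342 CPM and complex II at 776 ± 89.5 against 568 ± 54.8 CPM. In NSC/astrocyte-like barcodes complexes I to V had 1547, 210.1, 460.2, 1851 and 1195 CPM on average.

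Clusters of mitochondria-rich barcodes named from the same marker lists differed little in the sum. They had 65859.9 ± 2553 CPM when NSC/astrocyte-like, 69754 ± 2434 CPM when oligodendrocyte-like, 69988 ± 3330.1 CPM when microglia-like, 71571 ± 2806 CPM when striatal projection neuron-like and 72058 ± 3041 CPM when choroid plexus-like (n = 8 each). *Ttr* was at 3168 CPM in the last, against 255905 CPM in its nucleus-like counterpart. Against same-named mitochondria-rich barcodes, the median log2 difference of the set was −4.13 in NSC/astrocyte-like (89 genes), −4.00 in oligodendrocyte-like (79 genes) and −3.22 in microglia-like nucleus-like barcodes (75 genes). In the choroid plexus-like cluster it was 0.67 over 84 genes, and 0.20 over all genes. There *Cox8b* (7.85), *Cox6b2* (4.77), *Cox7a1* (3.27), *Atp5g1* (2.73) and *Ndufa11* (2.06) had the highest values, and *Ndufb9* (−1.19), *Cox6a1* (−1.02) and *Cox7a2l* (−0.96) the lowest. The order of the genes was nonetheless alike. Across the 92 genes with at least 20 UMIs, log2 CPM in choroid plexus-like and in mitochondria-rich barcodes had a Pearson r of 0.83, and across 90 genes in NSC/astrocyte-like barcodes r was 0.70. These are correlations across genes, which are not independent replicates.

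Other genes around the pathway were less uniform between nucleus-like and mitochondria-rich barcodes, where 39.4% of all genes were called lower and 39.6% higher. Of 49 tested of 50 respiratory chain factors outside the set (cytochrome c, coenzyme Q synthesis, complex IV assembly and carriers), 26 were lower and 9 higher, with a median log2 difference of −0.79. *Coa5* and *Surf1*, which help to assemble complex IV, were at −3.12 and −2.82, and *Coq2*, of coenzyme Q synthesis, at −2.20. Of the 18 citric acid cycle genes 13 were lower and 2 higher (median −0.78), with *Pdha1* of pyruvate dehydrogenase at −2.02 and *Fh1* (fumarase) at −1.30. Of 13 regulators of mitochondrial biogenesis tested, 6 were higher and 2 lower (median 0.04), a share of higher genes near that of all genes. *Nrf1* was at 3.41, the nuclear receptor *Esrrg* at 3.51 and the mitochondrial DNA polymerase *Polg* at 0.89. For reference, nuclear retained RNAs were higher in 6 of 7 cases (*Malat1* 4.53, *Neat1* 4.49, *Kcnq1ot1* 4.55), and 83 of 90 ribosomal protein genes were lower (median −3.15). Without choroid plexus-like barcodes, where 44.5% of all genes were lower and 43.4% higher, 34 of 48 respiratory chain factors were lower and 10 higher (median −1.72), 16 of 18 citric acid cycle genes lower and 2 higher (−1.65), 4 of 11 regulators lower and 5 higher (−0.27), 1 of 8 nuclear retained RNAs lower and 7 higher, and 84 of 90 ribosomal protein genes lower and 6 higher (−4.41).

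Genotypes were compared on sums per mouse. In nucleus-like barcodes 0 of 93 genes of the set were called by edgeR's quasi-likelihood test at an adjusted p under 0.05, where 0% of 11048 genes were called. None of the 93 had an unadjusted p under 0.05, against 1.52% of all genes, and DESeq2 called 0 of the set. The log2 difference (mut/mut minus wt/wt) was positive for 91 of 93 genes, with a median of 1.27 against 0.04 for all genes. *Ndufc1*, a small subunit of complex I, had the smallest p with 1.74 (standard error 0.93), followed by *Cox7a2* with 1.58 (standard error 0.86) and *Uqcr10*, a subunit of complex III, with 1.78 (standard error 0.98) (adjusted p = 0.923 for each, edgeR). The median rested on 1 library. Without *Tsc2* mut/mut 4, whose barcodes were mostly choroid plexus-like, it was −0.02, and with choroid plexus-like barcodes left out it was 0.27, again with 0 genes called.

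Mitochondria-rich barcodes showed no common direction. Of 93 genes 0 were called, against 0.352% of all 9933 genes, and 18 had an unadjusted p under 0.05, against 12.6% of all genes. The median log2 difference was 0.00, with 49 genes positive. *Sdha* was at 281, 209, 238 and 217 CPM in *Tsc2* wt/wt and 168, 195, 193 and 189 CPM in *Tsc2* mut/mut, or −0.34 (standard error 0.11) on the log2 scale, adjusted p = 0.18 by edgeR's quasi-likelihood test. *Ndufa7*, a complex I subunit, was at 606, 637, 593 and 551 and 685, 666, 729 and 838 CPM, or 0.29 (standard error 0.10), adjusted p = 0.226 in the same edgeR fit. *Ndufaf7* was at 17.7, 19.3, 16.5 and 22.5 and 11.8, 13.5, 15.2 and 12.3 CPM, or −0.53 (standard error 0.19), adjusted p = 0.236 (edgeR). These 3 were the genes of smallest p among the 93, and none of the differences passed the adjustment over all genes.

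The comparison gave the same count elsewhere. Over all kept barcodes 0 of 95 genes were called (0.0155% of all genes) with a median log2 difference of 0.28, which became −0.06 without *Tsc2* mut/mut 4. In low-count barcodes 0 of 95 were called (0.228% of all genes), the median was 0.10 (−0.0044 without *Tsc2* mut/mut 4), and 14 genes had an unadjusted p under 0.05 against 7.7% of all genes. The difference between nucleus-like and mitochondria-rich barcodes was also set against genotype as an interaction. Here 0 of 95 genes were called (0% of all genes at an adjusted p and 3% at an unadjusted p under 0.05, edgeR), with a median of 0.89, 0.18 without *Tsc2* mut/mut 4 and 0.30 without choroid plexus-like barcodes, again with 0 genes called. No gene of the other pathway lists described above was called by genotype in nucleus-like or mitochondria-rich barcodes as a whole. Within NSC/astrocyte-like mitochondria-rich barcodes 1 of 32 respiratory chain factors tested was higher in *Tsc2* mut/mut, 1 of 18 citric acid cycle genes lower, and of 85 ribosomal protein genes 3 were higher and 1 lower. Of all 5899 genes tested there, 21 were called higher and 15 lower. Within choroid plexus-like mitochondria-rich barcodes 1 of 80 ribosomal protein genes was higher and 1 lower, and of all 1011 genes 3 were higher and 6 lower.

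Within clusters of nucleus-like barcodes, the sums of *Tsc2* mut/mut lay above most of those of *Tsc2* wt/wt. NSC/astrocyte-like barcodes had 3599, 6485, 4046 and 3630.1 CPM in *Tsc2* wt/wt 1 to 4 and 6769.5, 5947 and 8168 CPM in *Tsc2* mut/mut 1 to 3. Microglia-like barcodes had 4848, 9792, 4758 and 5323 CPM and 11722, 7923 and 14229 CPM, and oligodendrocyte-like barcodes 4272, 8203, 4899 and 4255 CPM and 8417, 7236 and 10964 CPM. In each cluster *Tsc2* wt/wt 2 stood with the mutants and the other 3 controls lay below all mutants. The mitochondrial share followed the same split. In NSC/astrocyte-like barcodes it was 2.95, 5.92, 3.62 and 2.81% in *Tsc2* wt/wt and 5.95, 6.38 and 7.32% in *Tsc2* mut/mut 1 to 3, and in microglia-like barcodes 5.07, 10.3, 6.27 and 6.70% and 11.1, 9.23 and 13.6%. Set against mitochondrially encoded UMIs, the level in NSC/astrocyte-like barcodes was 11.4 ± 1.01 per 100 in *Tsc2* wt/wt (n = 4) and 9.93 ± 1.05 in *Tsc2* mut/mut (n = 3). In that cluster the ratio was thus not higher in the mutants. In microglia-like barcodes the sums and shares printed above give a ratio with a higher mean in the mutants and overlapping values. The ratio therefore had no common direction by genotype. Library depth made the same split. Total UMIs were 15527909, 33345765, 11182335 and 18671572 in *Tsc2* wt/wt 1 to 4 and 30917754, 21908321 and 36773832 in *Tsc2* mut/mut 1 to 3. Genotype and depth cannot be told apart in these clusters. The parts of the mitochondrial share and of depth in the difference were not tested.

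In NSC/astrocyte-like barcodes 0 of 82 genes were called (0% of 6541 genes), 26 had an unadjusted p under 0.05 against 8.45% of all genes, and 70 were positive with a median log2 difference of 0.46 (edgeR's quasi-likelihood test). Leaving out *Tsc2* wt/wt 2 turned this into 28 genes called higher of 76 tested, where 2.92% of all genes were called higher. That mouse was the control with the highest level of these same genes, so leaving it out widens the difference by construction. The count shows how far 1 mouse bears on the result and is no test of genotype. *Cox8a* then had a log2 difference of 1.43 (standard error 0.21), and *Cox4i1* 1.39. Without that mouse, genes of the set were also called higher in ependymal-like (12 of 34), microglia-like (10 of 22) and oligodendrocyte-like barcodes (7 of 44). The shares of all genes called higher there were 2.77%, 3.2% and 2.5%, and these fits are likewise no test of genotype. With that mouse kept, 0 genes of the set were called in each, of 24, 36 and 64 tested, and 0%, 0.077% and 0% of all genes were called. The median log2 differences were then 0.87, 0.75 and 0.58. Only mice with at least 10 barcodes of a cluster entered its fit. *Tsc2* mut/mut 4 was therefore in none of these 4 clusters, and *Tsc2* wt/wt 4 was not in the ependymal-like fit. Without *Tsc2* wt/wt 2 that fit had *Tsc2* wt/wt 1 and 3 as its only controls. In choroid plexus-like barcodes, without *Tsc2* wt/wt 3, 0 of 87 genes were called (0.637% of all genes), with a median of 0.03.

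**Figure D5:**
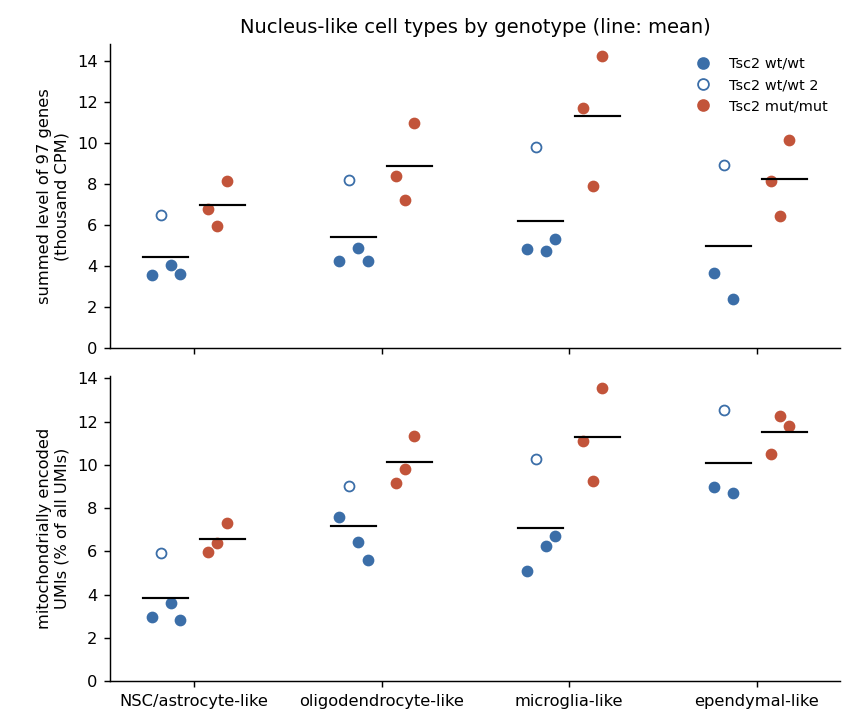
Summed level of the 97 genes (CPM of nuclear-encoded UMIs) and mitochondrial share of UMIs by genotype in 4 clusters of nucleus-like barcodes. The clusters are NSC/astrocyte-like, oligodendrocyte-like, microglia-like and ependymal-like, with 1 point per mouse and *Tsc2* wt/wt 2 as an open circle. In the summed level of NSC/astrocyte-like, microglia-like and oligodendrocyte-like barcodes this mouse lies with *Tsc2* mut/mut, and the other 3 controls lie below.

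*Cox8a* was the 1 gene of the set called by genotype with all mice and the filter on low counts, in NSC/astrocyte-like mitochondria-rich barcodes. It was at 7155, 6567, 6779.5 and 7069 CPM in *Tsc2* wt/wt and 8351, 7909, 8058 and 8819.9 CPM in *Tsc2* mut/mut. The log2 difference was 0.29 (standard error 0.07), adjusted p = 0.0371 by edgeR's quasi-likelihood test, where 0.356% of 5899 genes were called higher and 1 of 87 genes of the set was. The call was lost with the replicate number as a block (adjusted p = 0.0609), with no filter on low counts (adjusted p = 0.0663) and when any 1 mouse other than *Tsc2* mut/mut 2 or 3 was left out. The difference itself stayed between 0.24 and 0.32.

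The same direction was seen for *Cox8a* in other populations without passing the test. In mitochondria-rich barcodes as a whole the log2 difference was 0.23 (standard error 0.09), adjusted p = 0.269 (edgeR). Low-count barcodes had 7521, 7149.6, 7059 and 7299 CPM in *Tsc2* wt/wt and 9097, 7901, 8932 and 9433 CPM in *Tsc2* mut/mut, with a log2 difference of 0.35 and an adjusted p of 0.345 (edgeR). The values were 0.30 in microglia-like, 0.23 in choroid plexus-like, 0.18 in oligodendrocyte-like and 0.24 in striatal projection neuron-like mitochondria-rich barcodes (adjusted p from 0.211 to 0.499, edgeR). These populations come from the same 8 libraries and may share free RNA, so they are not independent of each other. In those 4 clusters 0 genes of the set were called, against 0.0946%, 0.89%, 0.0965% and 0.0649% of all genes.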

How the data were processed

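The authors aligned reads of 10x Genomics 3′ v3.1 libraries to GRCm38 with Cell Ranger 7.0.1, per the file headers and labels. The deposited values are counts of UMIs per gene and barcode, in whole numbers, without normalization or a filter beyond 60000 barcodes per library. Nuclei doublets were gated out at sorting by the authors, and no doublet caller was run here.

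The gene set and all lists were chosen with earlier results of these data known. Populations were split by mitochondrial share, with the limits given above. Clusters were found with scanpy 1.11.5 and leidenalg 0.10.2 (Python 3.11.15; counts scaled to 10000, 2000 variable genes, 30 principal components, 20 neighbours, resolution 0.8), without the set, mitochondrial, ribosomal protein and sex-linked genes. Clusters were named where 3 or more markers of a list were raised 1.5-fold and the next list reached no more than 0.8 of the best. That last condition was set after the clusters were seen and before genotypes were compared. Types with at least 10 barcodes in 3 mice of each genotype were tested, since no type had 10 nucleus-like barcodes in every mouse.

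UMIs were summed per mouse and tested in R 4.3.3 with edgeR 4.0.16 (quasi-likelihood test, robust fit, TMM, filterByExpr, Benjamini-Hochberg adjustment over all genes, threshold 0.05), after tests on simulated data. Standard errors are the log2 difference divided by the root of F. DESeq2 1.42.0 was an alternative. Replicate numbers only name mice. Counts per mouse, at most 4 against 4, and median depths per barcode limit precision, and counts cover counting error of UMIs only. Genes named are the 5 highest and 5 lowest between populations, the most abundant of each complex, those called or of smallest p by genotype, isoform families and the widest between types. The last were taken among genes with at least 20 UMIs in every cell type. Other genes were named after their values were seen. Of the set, 12 genes share bases with a gene on the same strand and 36 with one on the other strand. Many have processed pseudogenes, and how such reads were assigned was not tested.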

Additional observations from a re-analysis of the deposited data

Results flagged for a closer look

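Of 202 groups of 4 mice in which the highest or lowest mouse was set against the others, 30 had a mouse farther off than Dixon's 95% limit for the gap over the range. Chance flags about 1 in 20 groups. Most of the 30 were the nucleus-like barcodes of *Tsc2* mut/mut 4, of which 88.9% were choroid plexus-like. This mouse had a summed level of 86133 CPM and a ratio of 108 per 100 mitochondrially encoded UMIs there. Its nucleus-like CPM stood above those of the other mutants for *Cox4i1* (3279), *Ndufa4* (2863), *Uqcr11* (2674), *Uqcr10* (2495), *Cox7b* (1960.2), *Ndufc1* (1387), *Cox6b1* (1360), *Ndufa7* (1053), *Cox6a1* (926), *Atp5g3* (896), *Cox6b2* (347), *Cox7a2l* (237), *Sdha* (163) and *Cox7a1* (144). The same mouse was also highest among mutants in summed level in mitochondria-rich barcodes (75456 CPM) and in their NSC/astrocyte-like (71050 CPM), microglia-like (77040 CPM) and oligodendrocyte-like clusters (75414 CPM).

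*Tsc2* wt/wt 2 stood above the other controls in the summed level of nucleus-like NSC/astrocyte-like (6485 CPM), microglia-like (9792 CPM) and oligodendrocyte-like barcodes (8203 CPM). In NSC/astrocyte-like mitochondria-rich barcodes its ratio to mitochondrially encoded UMIs was 7.75 per 100. Its *Tsc2* level outside the choroid plexus-like cluster was 13.6 CPM, while *Tsc2* in mitochondria-rich barcodes of *Tsc2* wt/wt 3 was 20.1 CPM. The remaining values belong to genes of few UMIs. *Cox4i2* was at 3.32 CPM in nucleus-like barcodes of *Tsc2* mut/mut 3, *Ndufa4l2* at 2.53 CPM in those of *Tsc2* wt/wt 2 and at 3.53 CPM in those of *Tsc2* mut/mut 2, and *Cox7a1* at 11.99 CPM in mitochondria-rich barcodes of *Tsc2* mut/mut 2, below the other mutants.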

How the results depend on the processing

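Of the counts and levels recomputed under other settings, 219 stayed within 1.5 times the count or 1 SD of the level and 28 moved. Among values of single genes, 513 kept direction and side of the threshold, 14 lost a call, 3 gained one and 5 reversed. Without the filter on low counts, the genes of the set called by genotype numbered 9 in NSC/astrocyte-like, 2 in microglia-like and 3 in oligodendrocyte-like nucleus-like barcodes and 1 in choroid plexus-like mitochondria-rich barcodes. The share of all genes called at this setting is not given here, so these counts cannot be set against it. Between mitochondria-rich and low-count barcodes 4 were then called, and 1 with DESeq2, against 15. Leaving out 1 mouse gave 4 to 13 calls there and 81 to 90 between nucleus-like and mitochondria-rich barcodes. The shares of all genes are not given for these fits either. For genotype it gave 0 to 28 in NSC/astrocyte-like, 0 to 12 in ependymal-like, 0 to 10 in microglia-like and 0 to 7 in oligodendrocyte-like nucleus-like barcodes, 0 to 2 in NSC/astrocyte-like mitochondria-rich barcodes and 0 in the other genotype comparisons. The highest counts in nucleus-like clusters came without *Tsc2* wt/wt 2 and carry the limit given above for that mouse. With the replicate number as a block, 0 genes were called in each genotype comparison, also in NSC/astrocyte-like mitochondria-rich barcodes. The numbers do not pair the mice. Correlations of same-numbered mice ran from −0.65 to 0.40 in nucleus-like and from −0.12 to −0.06 in mitochondria-rich barcodes, and not every mouse correlated best with its own number.

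Between nucleus-like and mitochondria-rich barcodes, *Atp5g1* turned to 0.29 without TMM factors, *Cox7a1* to −0.25 without the 5% of barcodes with the most UMIs and to −3.60 without choroid plexus-like barcodes, and *Cox6b2* to −2.29 and *Ndufaf6* to −0.022 without choroid plexus-like barcodes. *Cox6b2* also lost its call without the filter (1.55, adjusted p = 0.054 by edgeR) and without the top 5% (1.12, adjusted p = 0.0913 by edgeR). The level of mural/fibroblast-like barcodes, 5623 CPM over 4 mice, was 9896 CPM at resolutions of 0.4 and 1.6 and without the top 5%, and 9807 CPM with components centred per mouse, each from 1 mouse. The cause of these shifts was not tested. Depth limited the rare isoforms *Cox8c*, *Ndufa4l2* and *Cox7b2*, which were not tested between nucleus-like and mitochondria-rich barcodes.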
